A study of Mus musculus with 14 samples.

Results

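Small leucine-rich proteoglycans are secreted matrix proteins with a core of leucine-rich repeats, most of which carry glycosaminoglycan chains. The 8 described here are decorin (Dcn), biglycan (Bgn), asporin (Aspn), fibromodulin (Fmod), lumican (Lum), prolargin (Prelp), osteomodulin (Omd) and osteoglycin (Ogn). Members were the rows of the deposited gene table whose symbol equals one of these names, and each name matched 1 row. They are 8 of 55359 gene entries, and all 8 were among the 16918 genes kept by a filter on low counts. The members were chosen by family with group values of these same samples in view, so their levels and fold changes are a description and carry no p-value.

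The samples were cerebral cortex from both sides of the mouse brain: 4 from sham animals, 5 taken 2 d and 5 taken 7 d after cerebral venous sinus thrombosis (CVST), a clot in the large veins that carry blood out of the brain. The design text asks which genes differ between sham and damaged cortex at the times given. The labels give no strain, genotype, sex, age, drug or way of inducing the clot, and no collection time for the sham samples. Samples are numbered within a group without a statement that each is a separate mouse, so p-values measure only the spread between these samples, which may be technical. The labelled tissue was read with neuronal markers: the summed level of 6 cortical neuron genes lay between 3006 and 4955 CPM in the 14 samples (CPM is a gene's count scaled to a library of 1 M counts, M for mega, with TMM factors), and none of the 6 was at 0. Snap25 (mean 2047 CPM) and Slc17a7 (1233 CPM) led that sum, so it shows neurons and does not by itself tell cortex from other brain regions. Choroid plexus markers, with Ttr the most abundant, summed to 12.0 to 880 CPM within sham, and the cause of this spread was not tested.

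In connective tissue these proteins sit on collagen fibrils, where they set how fibrils join and how thick they grow, and they also bind growth factors such as TGF-beta. Decorin and biglycan carry chondroitin or dermatan sulfate chains, whereas lumican, fibromodulin, osteomodulin and the chain-bearing form of osteoglycin carry keratan sulfate. In the brain they are made mainly by fibroblasts of the meninges and around vessels and by vessel wall cells, and soluble biglycan can engage the toll-like receptors TLR2 and TLR4. Members are described by class: class I (Dcn, Bgn, Aspn), class II (Fmod, Lum, Prelp, Omd) and class III (Ogn).

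Many family genes lie side by side in the genome. In the RefSeq order of protein-coding genes (GRCm38.p6), Optc, Prelp, Fmod and Btg2 follow one another on chromosome 1, Dcn, Lum and Kera on chromosome 10, and Cenpp, Ecm2, Aspn, Omd and Ogn on chromosome 13, while Bgn lies on chromosome X between Haus7 and Atp2b3. The files use build mm39, so no gene positions are given. The 250 bases before the start site are shown for Fmod and Ogn, the members with a call between 7 d and 2 d, and for Bgn. Bgn had the widest range in CPM, though not the widest ratio of highest to lowest level (17.1, against 35.6 for Fmod). The bases are from RefSeq (GRCm38.p6, plus strand), at 1:134037004-134037253 for Fmod, 13:49607765-49608014 for Ogn and X:73483351-73483600 for Bgn.
Fmod: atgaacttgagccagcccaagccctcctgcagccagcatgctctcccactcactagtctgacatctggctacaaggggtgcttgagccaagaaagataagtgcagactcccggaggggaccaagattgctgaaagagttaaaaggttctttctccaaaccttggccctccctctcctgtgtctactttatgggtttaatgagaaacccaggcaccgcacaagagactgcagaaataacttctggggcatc
Ogn: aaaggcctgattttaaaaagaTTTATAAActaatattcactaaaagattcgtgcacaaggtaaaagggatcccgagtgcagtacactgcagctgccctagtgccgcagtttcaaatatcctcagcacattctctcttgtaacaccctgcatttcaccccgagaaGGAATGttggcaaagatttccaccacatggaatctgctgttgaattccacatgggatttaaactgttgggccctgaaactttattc
Bgn: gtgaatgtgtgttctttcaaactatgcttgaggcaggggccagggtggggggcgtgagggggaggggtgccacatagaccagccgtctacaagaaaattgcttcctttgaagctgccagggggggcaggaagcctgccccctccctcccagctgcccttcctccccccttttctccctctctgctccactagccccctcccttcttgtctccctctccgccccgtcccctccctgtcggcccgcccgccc
Capitals mark the matches to 4 motifs searched on both strands: the AP-1 motif TGANTCA, the TEAD motif GGAATG, the TATA box TATAAA and the CArG box. Fmod and Bgn held none of the 4. Ogn held GGAATG from base -86 and a pair of TATAAA matches on opposite strands that overlap, from bases -229 and -227 relative to the start site. Of 32851 promoters of this length, 6.75% held TGANTCA, 12.64% GGAATG, 12.37% TATAAA and 1.47% a CArG box. The G and C content was 51.2% for Fmod, 42.0% for Ogn and 64.4% for Bgn, against a median of 52.4% over all promoters. These windows of Fmod and Ogn therefore shared none of the 4 motifs.

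Library facts bear on every value that follows. A library held 14.7 to 20.8 M counts in genes, and the members were covered by 5 (Omd) to 4064 counts (Bgn) in a sample. Sample CVST-7d 5 stands apart: it had the highest level of 5 of 8 members, and its summed level of 13 collagen and fibril partner genes was 4559 CPM against 378 to 612 CPM in the other 7 d samples. Its 9 macrophage markers summed to 1995 CPM, while those of CVST-7d 2 summed to 32.7 CPM and those of sham to 20.5 to 22.8 CPM. CVST-2d 5 had the lowest collagen sum of its group, at 274 CPM, within the sham range of 222 to 287 CPM. A printed 7 d fold change of a member is also given without CVST-7d 5 where that sample moved it by over 1.5 times. Because whole cortex was sequenced, fewer cells of a type and less RNA per cell cannot be told apart.

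Per length of transcript, decorin was the most abundant member in each of the 4 sham samples. The authors' FPKM values (fragments scaled to transcript length and library size) averaged 20.7 ± 10.3 for Dcn, 7.87 ± 1.53 for Bgn, 6.79 ± 2.16 for Fmod and 6.78 ± 2.22 for Prelp (SD, n = 4). Ogn at 4.36 ± 1.66, Lum at 1.45 ± 0.237, Aspn at 1.17 ± 0.233 and Omd at 0.853 ± 0.352 FPKM followed. Neighbours from Bgn to Prelp, and Aspn and Omd, were within 1 SD of each other, so their order is not resolved. At 2 d the order was Dcn (27.4 FPKM), Bgn (11.9), Prelp (4.01), Lum (3.95), Fmod (2.52), Ogn (2.17), Aspn (0.876) and Omd (0.442), and neighbours from Prelp to Ogn were within 1 SD. At 7 d Bgn (32.3 ± 42.9 FPKM) and Dcn (31.6 ± 12.3) led, and the Bgn mean rests on CVST-7d 5, whose level was 108.9 FPKM. Lumican thus stood above fibromodulin in mean FPKM at 2 d and below it in sham and at 7 d. The ratio of Lum to Fmod in FPKM ran from 0.154 to 0.396 in sham, from 0.261 to 7.11 at 2 d and from 0.254 to 1.29 at 7 d, and the ranges overlap. The 2 d range overlaps the others through CVST-2d 5 (0.261) alone, as the other 2 d samples lay at 1.71 or above.

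**Figure D1:**
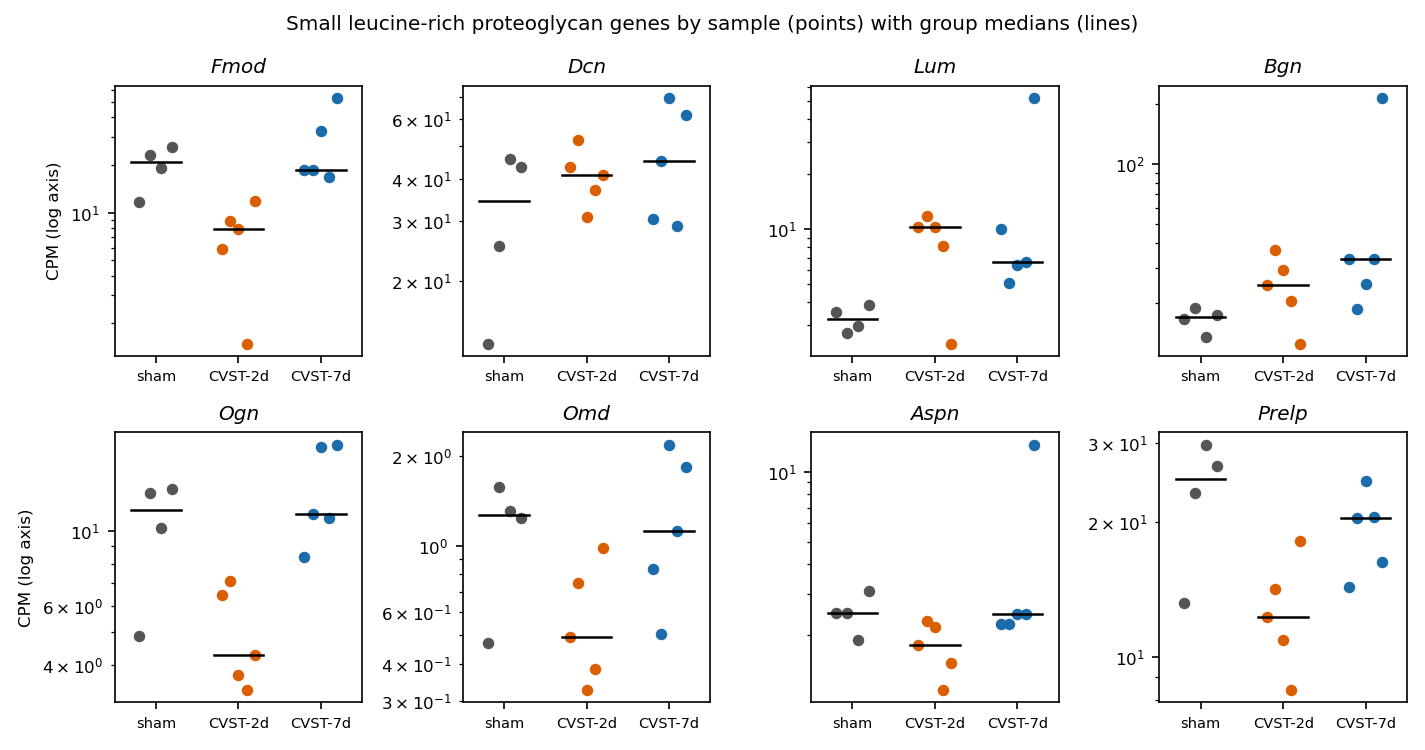
Level of the 8 small leucine-rich proteoglycan genes in CPM (log axis) in 4 sham, 5 CVST-2d and 5 CVST-7d samples; points are samples and lines are group medians. Fmod and Ogn have their lowest medians at 2 d with no overlap between 2 d and 7 d, and 1 sample at 7 d stands far above its group for Lum, Bgn and Aspn.

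Decorin, which binds collagen fibrils and TGF-beta, varied most within sham. Its levels were 13.1, 25.4, 45.9 and 43.5 CPM in sham 1 to 4. At 2 d they were 43.3, 52.2, 30.8, 37.1 and 41.2 CPM, and at 7 d 30.4, 45.1, 69.2, 29.0 and 61.6 CPM. Sham 1 was low, and the other samples of all groups overlapped widely. Against sham, the log2 fold change was 0.35 ± 0.33 (SE; 95% interval -0.35 to 1.06) at 2 d and 0.56 ± 0.33 (-0.16 to 1.27) at 7 d. Dcn was not called in any comparison, and its intervals leave room for a more than doubled level.

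Biglycan, the close relative of decorin that also acts as a danger signal, was high in most CVST samples. In sham it lay at 16.6, 18.8, 13.4 and 17.3 CPM. At 2 d it lay at 24.6, 36.7, 29.3, 20.4 and 12.4 CPM, and at 7 d at 33.1, 18.5, 24.8, 33.1 and 213 CPM. At each time 4 of 5 samples were above the highest sham sample, CVST-2d 5 was below the lowest one, and CVST-7d 2 lay inside the sham range. On the log2 scale, the change from sham was 0.58 ± 0.61 (95% interval -0.73 to 1.89) at 2 d and at 7 d 1.97 ± 0.63 (0.62 to 3.32), neither of them called. Without CVST-7d 5 the 7 d value was 0.73, and the group mean moved from 64.5 ± 83.3 CPM (SD, n = 5) to 27.4 ± 7.10 CPM (n = 4).

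Asporin, a class I member without glycosaminoglycan chains, was low in all samples but 1. Its levels were 2.47, 2.48, 1.90 and 3.07 CPM in sham and 1.81, 2.30, 2.16, 1.16 and 1.51 CPM at 2 d. At 7 d they were 2.23, 2.22, 2.46, 2.46 and 13.1 CPM. The first 4 samples at 7 d fell within a narrow band inside the sham range, and CVST-7d 5 was alone far above it. Set against sham, the log2 fold change was -0.47 ± 0.51 at 2 d and 0.86 ± 0.50 at 7 d, and without CVST-7d 5 the latter was -0.08, of opposite sign. None of the Aspn comparisons was called.

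Fibromodulin, a keratan sulfate proteoglycan that binds fibrillar collagen, was lowest at 2 d. Sham levels were 11.6, 23.1, 19.1 and 26.0 CPM. At 2 d they were 5.86, 8.81, 7.85, 1.49 and 11.9 CPM, and at 7 d 18.7, 18.6, 32.7, 16.7 and 52.9 CPM. Of the 2 d samples 4 of 5 lay below the lowest sham sample, CVST-2d 5 being just above it, and every 7 d sample lay above every 2 d sample. The log2 fold change was -1.47 ± 0.45 (95% interval -2.44 to -0.50) at 2 d against sham, not called. It was 0.49 ± 0.44 (-0.46 to 1.44) at 7 d against sham, not called, and 1.96 ± 0.44 (1.02 to 2.90) between 7 d and 2 d, called higher. That last difference is a 3.89-fold higher level at 7 d. Without CVST-7d 5 the value at 7 d against sham was 0.12. The call was lost without CVST-2d 1 (1.90), CVST-2d 3 (2.00), CVST-7d 3 (1.90) or CVST-7d 5 (1.59), with the direction kept in each.

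Lumican, the keratan sulfate proteoglycan of the cornea and of many fibrous tissues, was above the highest sham level in 9 of 10 CVST samples. It lay at 3.53, 2.73, 2.95 and 3.88 CPM in sham. At 2 d it lay at 10.3, 11.8, 10.3, 8.09 and 2.37 CPM, and at 7 d at 10.1, 5.07, 6.36, 6.64 and 52.1 CPM. Each 7 d sample was above each sham sample, while at 2 d CVST-2d 5 was below the lowest sham sample. The log2 fold change was 1.39 ± 0.66 (95% interval -0.03 to 2.81) at 2 d and 2.30 ± 0.68 (0.85 to 3.74) at 7 d against sham, neither called. Without CVST-7d 5 the 7 d value was 1.10, and the change from 2 d to 7 d turned from 0.91 to -0.29, so the direction between the times turns on that sample. Lum and Bgn shared both the high sample CVST-7d 5 and the low sample CVST-2d 5.

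Prelp encodes prolargin, which links basement membranes to collagen. Its levels were 13.2, 23.2, 29.7 and 26.6 CPM in sham and 12.3, 14.2, 10.9, 8.42 and 18.1 CPM at 2 d. At 7 d they were 14.3, 20.4, 24.6, 20.5 and 16.3 CPM. Sham 1 was the lowest sham sample, as for Dcn, Fmod, Ogn and Omd, and 3 of 5 samples at 2 d were below it. For Prelp the log2 fold change was -0.86 ± 0.24 (95% interval -1.38 to -0.34) at 2 d, -0.27 ± 0.24 (-0.78 to 0.24) at 7 d and 0.59 ± 0.23 between them, none called. In the fit of all samples Prelp was the only member whose 7 d level was below sham, and CVST-7d 5 was not high for it.

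Osteomodulin, first known from bone, was the member with the fewest reads, 5 to 38 counts per sample. It lay at 0.471, 1.57, 1.30 and 1.24 CPM in sham and at 0.493, 0.750, 0.327, 0.385 and 0.984 CPM at 2 d. At 7 d it lay at 0.836, 0.507, 2.18, 1.12 and 1.84 CPM. All 3 groups overlapped, and 2 of 5 samples at 2 d were below the lowest sham sample. For Omd the log2 fold change was -0.95 ± 0.46 at 2 d against sham, 0.18 ± 0.45 at 7 d against sham and 1.13 ± 0.44 between the times, none called. Without CVST-7d 5 the value at 7 d against sham was 0.0245.

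Osteoglycin, also called mimecan, is the class III member. Its levels were 4.88, 12.96, 10.2 and 13.3 CPM in sham. At 2 d they were 6.46, 7.08, 3.73, 3.36 and 4.28 CPM, and at 7 d 8.36, 11.3, 17.9, 10.9 and 18.1 CPM. The 2 d samples were all below all 7 d samples, and 3 of 5 were below sham 1, the low sham sample. The log2 fold change was -1.05 ± 0.32 (95% interval -1.73 to -0.37) at 2 d against sham, not called, and 0.37 ± 0.31 (-0.30 to 1.03) at 7 d against sham, not called (0.23 without CVST-7d 5). Between 7 d and 2 d it was 1.41 ± 0.30 (0.76 to 2.06), a 2.66-fold higher level, called. The call held without CVST-7d 5 (1.28) and was lost without CVST-2d 3 (1.33), CVST-2d 4 (1.30) or CVST-7d 3 (1.29).

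**Figure D2:**
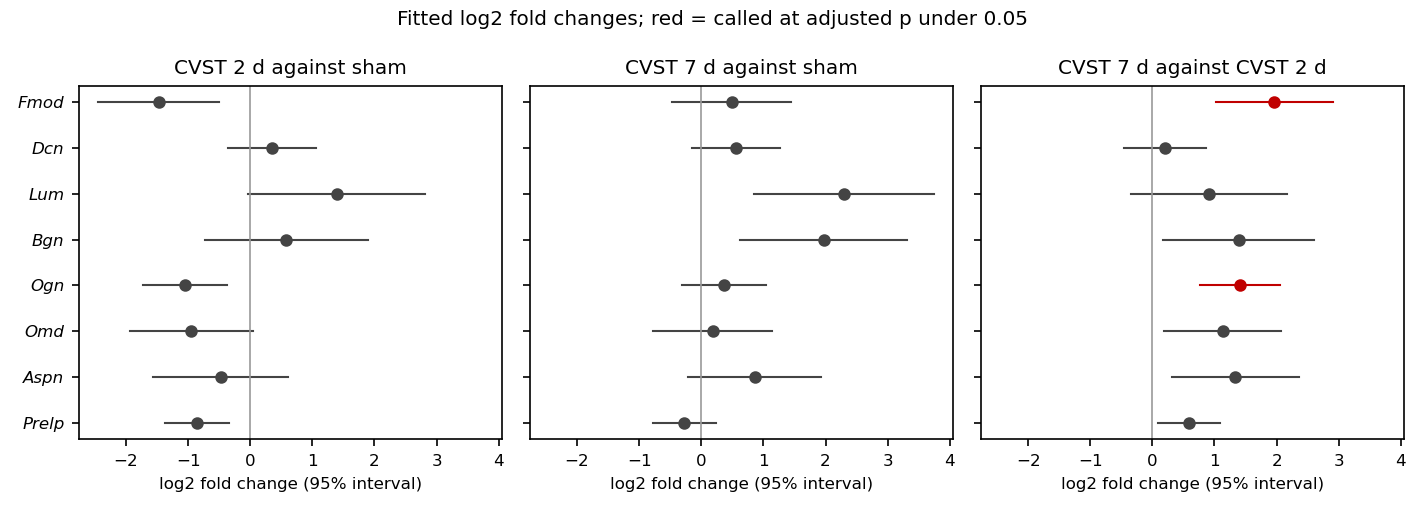
Fitted log2 fold changes of the 8 genes with 95% intervals in the 3 comparisons; red marks a gene called at an adjusted p under 0.05. Fmod and Ogn are the genes called, both between 7 d and 2 d, and the widest intervals are those of Lum and Bgn.

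Over the family, 0 of 8 members were called lower at 2 d against sham by edgeR's quasi-likelihood test, where 0.969% of all genes tested were called lower, and 0 of 8 higher, where 2.98% were. At an unadjusted p under 0.05 there were 3 of 8 (Fmod, Ogn and Prelp, all lower), against 21.7% of all genes in either direction. DESeq2 called those 3 lower, against 2.69% of all genes, and limma voom 2, against 7.07%. DESeq2 gave no adjusted p for Bgn and Aspn in any comparison, so its counts cover only the other members. The fitted change was negative in 5 of 8 and positive in 3 of 8 (Dcn, Lum and Bgn), with a median log2 fold change of -0.67, against -0.01 over all genes tested. The count of members called lower was 2 without sham 1 (Ogn and Prelp) and 2 without CVST-2d 5 (Fmod and Prelp). For fits without 1 sample, here and below, no share over all genes is given, so those counts only describe the members. At 7 d against sham 0 of 8 were called in either direction, where 3.61% of all genes were called higher and 0.833% lower. There, 2 of 8 (Lum and Bgn) had an unadjusted p under 0.05, near the 19.6% of all genes. DESeq2, which did not judge Bgn or Aspn, called 1 higher (Lum), against 6.16% of all genes, and limma voom 0, against 3.4%. The 7 d and sham samples did not overlap for 1 of 8 (Lum), against 5.8% of all genes that were higher without overlap. The fitted change was positive in 7 of 8, with a median log2 fold change of 0.52, and in 6 of 8 without CVST-7d 5 (median 0.18), without sham 1 (0.31) or without CVST-7d 3 (0.40). Without CVST-7d 2 both Lum and Bgn were called. These comparisons share the sham samples.

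Between 7 d and 2 d, 2 of 8 members were called higher, where 1.54% of all genes were, and 0 of 8 lower, where 1.25% were. The fitted change was positive in 8 of 8, with a median log2 fold change of 1.23 against 0.01 over all genes tested. Without CVST-7d 5 it was positive in 7 of 8, with a median of 0.52. The groups did not overlap for 2 of 8, Fmod and Ogn, against 2.28% of all genes that were higher without overlap. DESeq2 and limma voom each called 2 higher, against 3.89% and 3.46% of all genes. Here too DESeq2 gave no adjusted p for Bgn and Aspn. An unadjusted p under 0.05 was found for 6 of 8, the exceptions being Dcn and Lum, against 20.9% of all genes in either direction. Since the members were picked with these values known, the counts describe them and test nothing. The count of 2 fell to 0 without CVST-2d 3 or without CVST-7d 3, and to 1 without CVST-2d 1, CVST-2d 4 or CVST-7d 5.

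**Figure D3:**
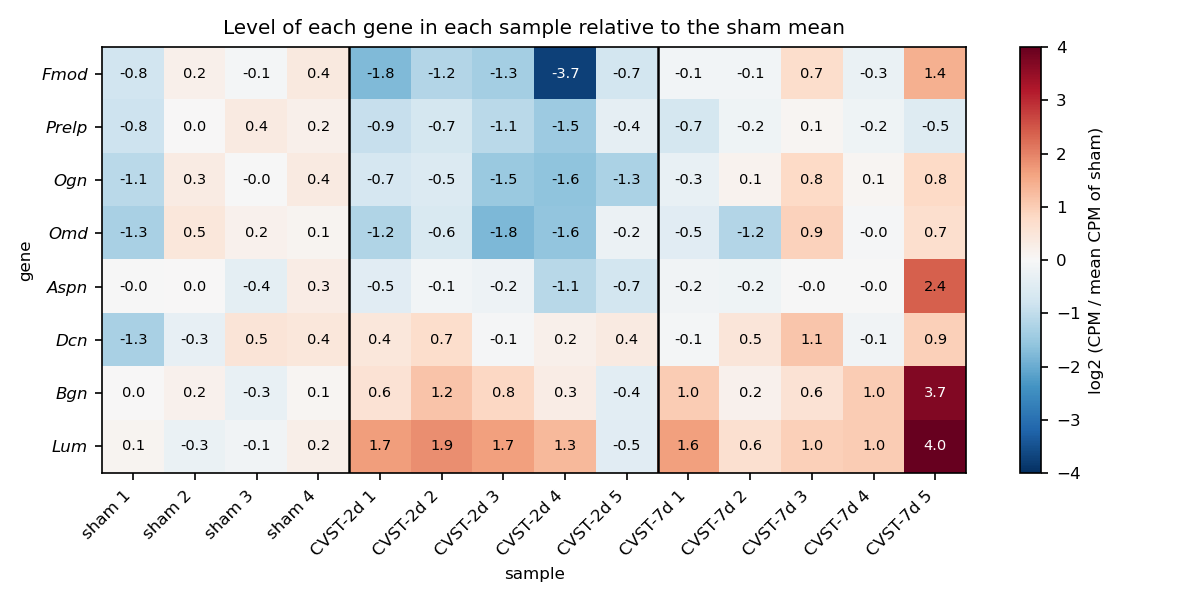
Level of each gene in each sample as log2 of its CPM over the mean CPM of sham; rows are genes, columns the 14 samples, and the colour scale and printed values give the log2 ratio. Fmod, Prelp, Ogn, Omd and Aspn are below the sham mean in all 5 samples at 2 d, whereas Lum and Bgn are above it in 4 of 5. CVST-7d 5 is highest for Lum, Bgn, Aspn, Fmod and Ogn.

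Members differed in which samples they followed. Over the 14 samples, log2 CPM of Lum and Bgn had a Pearson r of 0.93, and of 0.87 without CVST-7d 5. Fmod and Ogn had an r of 0.85 (0.82 without that sample), Ogn and Omd 0.82, and Fmod and Prelp 0.76 (0.86 without it). Lum with Fmod had an r of 0.08, or -0.43 without CVST-7d 5, and Lum with Prelp -0.44. All pairs share libraries and group means, so the values are a description only. Other pairs crossed these: Bgn with Aspn had an r of 0.84 (0.24 without CVST-7d 5), Fmod with Aspn 0.71 (0.78 without it), and Dcn with Ogn 0.45 overall and 0.82 about the group means.

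The genes most like each member were taken as the 3 outside the members with the highest r over the 14 samples. The highest r picked from all genes tested is high in part through the picking. Whether it exceeds chance was not tested, so the names are a description. For Fmod these were Col9a2 (0.92), Dbp (0.92) and Myoc (0.92), and without CVST-7d 5 their r was 0.93, 0.91 and 0.96. Myocilin, a secreted glycoprotein, averaged 22.0 ± 4.81 CPM in sham, 9.57 ± 3.95 at 2 d and 28.1 ± 9.32 at 7 d. Dbp, a transcription factor of the circadian clock, averaged 64.7 ± 7.38, 42.4 ± 10.9 and 72.7 ± 6.48 CPM, and the labels give no time of day for the collection. For Ogn the nearest were Marcks (0.94), Abca8a (0.93) and Sytl4 (0.87), for Omd B9d1 (0.89), Slc6a20a (0.88) and Igf2 (0.87), and for Prelp Jph4 (0.92), 2310022B05Rik (0.91) and Ptpn14 (0.91).

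For Bgn the nearest were the fibrillar collagen genes Col1a2 and Col5a2 and the endocytic receptor gene Mrc2, each with an r of 0.96. Without CVST-7d 5 the r was 0.84 for Col1a2, 0.82 for Col5a2 and 0.89 for Mrc2. For Lum the nearest were Lsp1 (0.96), Dpep2 (0.95) and H19 (0.95), with an r of 0.92, 0.91 and 0.90 without that sample. For Aspn they were Hdhd2 (0.93), Postn (0.92) and Mfap4 (0.91), which fell to 0.70, 0.58 and 0.58 without it, so that likeness rests on CVST-7d 5. For Dcn they were Rap2b (0.89), Nono (0.87) and Fbxl7 (0.85).

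Of 9 further genes of the family, 6 were kept by the filter. Ecm2, a class I relative that lies next to Aspn, was lower at 2 d (3.80 ± 0.823 CPM, SD, n = 5) than in sham (6.38 ± 1.27, n = 4), with a log2 fold change of -0.75 ± 0.19 (adjusted p = 0.0424, edgeR). At 7 d it was 6.27 ± 0.961 CPM, higher than at 2 d by 0.72 ± 0.18 (adjusted p = 0.0462, edgeR) without overlap of the groups, and -0.03 from sham. Ecm2 was the 1 of 6 called lower at 2 d and the 1 of 6 called higher between 7 d and 2 d, and 0 of 6 were called at 7 d against sham (0 at an unadjusted p under 0.05, 0 by DESeq2 and 0 by limma voom). Leaving out 1 sample at a time kept the first call in 3 of 9 fits (adjusted p 0.0373 to 0.125) and the second in 2 of 10 (0.0362 to 0.123), edgeR throughout. The calls were lost without any of sham 2, 3 and 4 or CVST-2d 1, 2 and 4 for the first, and for the second without CVST-2d 1, 2 or 4 or any 1 of the 7 d samples. The fold changes over these fits lay between -0.87 and -0.66, and between 0.63 and 0.84.

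The other 5 genes were not called by edgeR in the fit of all samples. Epyc, encoding epiphycan of cartilage, lay at 9.85 ± 4.58, 5.58 ± 5.44 and 8.02 ± 4.37 CPM in sham, at 2 d and at 7 d. Its log2 fold change at 2 d was -0.82, and -1.64 and called lower without CVST-2d 5 (adjusted p = 0.0185, edgeR; 0.0185 to 0.641 over its alternatives), and limma voom and the replicate block also called it lower. Optc, for opticin of the eye, lay at 0.791, 0.385 and 0.399 CPM, and Nyx, for nyctalopin of the retina, at 0.739, 0.481 and 0.667 CPM. Tsku, for the signalling modulator tsukushi, lay at 2.36, 3.68 and 3.12 CPM, and Podn, for podocan, at 3.59, 3.74 and 4.33 CPM. Kera, Chad and Podnl1 did not pass the filter, and their group means were at most 0.307 CPM.

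Among 13 collagens and fibril partners, the ligands of these proteoglycans, 3 were called higher at 7 d against sham. Col3a1 averaged 8.19 ± 4.45 CPM in sham and 216 ± 387 at 7 d, a log2 fold change of 4.73 ± 1.16 (adjusted p = 0.0345, edgeR). Col1a1 (4.47 ± 1.07, adjusted p = 0.0309, edgeR) and Col1a2 (3.54 ± 0.93, adjusted p = 0.0458, edgeR) were the others. Without CVST-7d 5 the values were 2.43, 2.12 and 1.50, and all 3 stayed called. Each call was lost when any 1 sham sample was left out, the Col1a2 call also without CVST-7d 4, and limma voom called 0 of the 13. The fitted change at 7 d was positive in 13 of 13, with a median log2 fold change of 1.72, against 0.52 in the 8 members and -0.01 over all genes tested. Without CVST-7d 5 it was positive in 13 of 13 with a median of 0.61, beside 0.18 in the members. At 7 d 12 of 13 had an unadjusted p under 0.05, and DESeq2, which gave no adjusted p for Col1a1, called 4 higher. At 2 d 0 of 13 were called by edgeR (1 at an unadjusted p under 0.05, 1 by limma voom, 0 by DESeq2). The fitted change at 2 d was nonetheless positive in 12 of 13, with a median log2 fold change of 0.62. Their summed level had a median of 263 CPM in sham, 473 at 2 d and 479 at 7 d. Between 7 d and 2 d edgeR called 0 (7 at an unadjusted p under 0.05, 3 by DESeq2, 0 by limma voom).

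The enzymes that build the sugar chains were read from separate lists. Of 19 tested linker and chondroitin or dermatan sulfate enzymes, edgeR called 0 in each comparison, with 2 at 2 d, 4 at 7 d and 4 between the times at an unadjusted p under 0.05. DESeq2 called 2 of them lower at 7 d and limma voom called 1 higher at 2 d and 1 lower at 7 d. Of 6 keratan sulfate enzymes, B4galt1, a galactosyltransferase, was called higher at 7 d, from 5.42 ± 0.629 CPM in sham to 14.6 ± 8.82 (log2 fold change 1.43 ± 0.33, adjusted p = 0.0268, edgeR). It was the 1 of 6 called at 7 d, where 3.61% of all genes were called higher, and edgeR called 0 of 6 at 2 d and 0 of 6 between the times (3 and 0 at an unadjusted p under 0.05). DESeq2 called 2 higher at each time against sham, and limma voom 1 higher and 1 lower at each. The B4galt1 call was lost without any 1 sham sample or without CVST-7d 4, with the fold change between 1.01 and 1.61 over fits without 1 sample.

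Of 12 genes for proteases that process or cleave proteoglycans, counted with the protease enhancer Pcolce, 1 was called higher at each time. At 2 d it was Adamts1, a metalloprotease that cleaves large proteoglycans, at 47.7 ± 25.4 CPM against 11.6 ± 1.18 in sham (log2 fold change 2.04 ± 0.36, adjusted p = 0.0121, edgeR). It was lower again at 7 d than at 2 d, by -1.74 ± 0.33 on the log2 scale (adjusted p = 0.0167, edgeR), the 1 of 12 called between the times. The call at 2 d was lost without sham 3, within a range of 1.72 to 2.23. At 7 d it was Mmp12, the macrophage elastase, from 0.162 to 5.20 CPM (4.92 ± 1.27, adjusted p = 0.0419, edgeR), a call kept in 2 of 9 fits without 1 sample (without CVST-7d 2 or CVST-7d 3), over which the fold change lay between 3.34 and 5.46.

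Of 15 growth factors and receptors linked to signalling by these proteoglycans, 3 were called higher at 2 d and 4 at 7 d. Not all of the 15 are direct binding partners. Of all genes tested, 2.98% were called higher at 2 d and 3.61% at 7 d. Cd14, the co-receptor of toll-like receptors, went from 1.99 ± 0.256 CPM in sham to 11.8 ± 4.40 at 2 d (log2 fold change 2.56 ± 0.38, adjusted p = 0.00595, edgeR), and this call held in all 9 fits without 1 sample. At 7 d Cd14 was at 7.14 ± 3.88 CPM (1.84 ± 0.37, adjusted p = 0.0170, edgeR), a call lost without sham 2, 3 or 4. Tlr2 stood at 1.07 CPM in sham, 6.26 at 2 d (2.55 ± 0.64, adjusted p = 0.0428, edgeR) and 10.6 at 7 d (3.31 ± 0.65, adjusted p = 0.0153, edgeR). Tlr4 was called at 2 d and 7 d with log2 fold changes of 1.40 and 1.39. Tgfbr2, the type II receptor of TGF-beta, was called at 7 d alone (1.28 ± 0.27, adjusted p = 0.0186, edgeR), and its difference between the times was 0.54 ± 0.25 and was not called. The calls of Tlr2 at 2 d and of Tlr4 at both times each held in 1 of 9 fits without 1 sample (without CVST-2d 5 at 2 d and without CVST-7d 2 at 7 d). The Tlr2 call at 7 d was lost without sham 2 or 3, and that of Tgfbr2 without sham 2, 3 or 4 or CVST-7d 4. The fold changes in those fits lay between 2.11 and 2.82 for Tlr2 at 2 d, between 2.90 and 3.60 at 7 d, and between 1.21 and 1.63 for Tlr4 at both times.

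**Figure D4:**
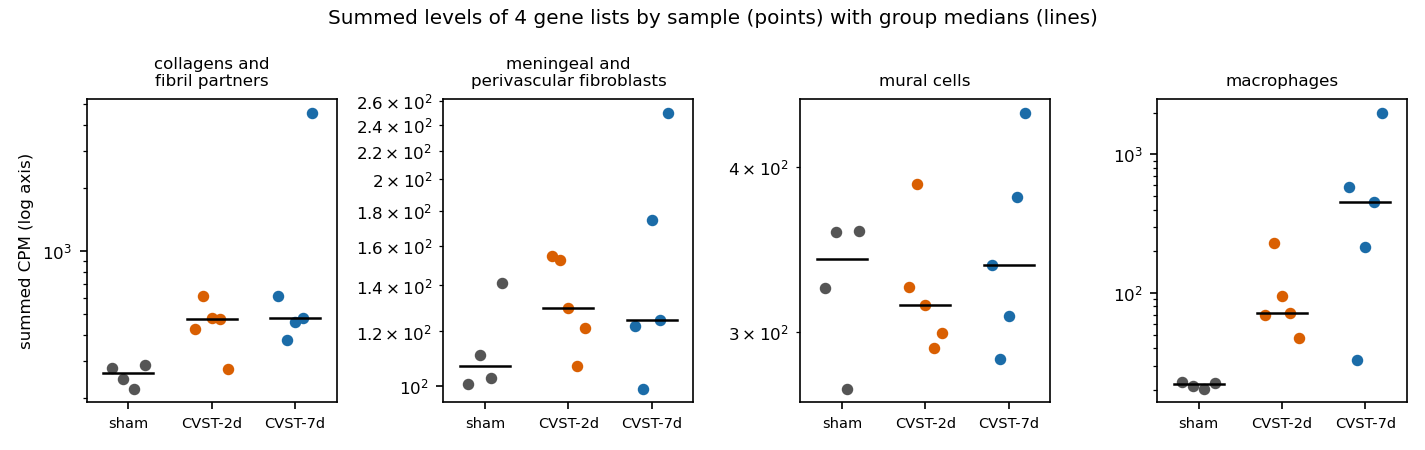
Summed CPM (log axis) of 13 collagens and fibril partners and of markers of meningeal and perivascular fibroblasts, mural cells and macrophages in each sample, with group medians as lines. CVST-7d 5 is the highest sample in all 4 panels, at 4559 CPM for collagens and 1995 CPM for macrophage markers.

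Markers of the cells that make these proteoglycans were read beside the members. The 13 markers of meningeal and perivascular fibroblasts summed to 101 to 141 CPM in sham, 107 to 154 CPM at 2 d and 99.1 to 250 CPM at 7 d, with CVST-7d 5 the highest, and none of them was at 0 throughout a group. The most abundant, Mgp, an inhibitor of calcification, was not called, at 14.5 ± 5.57, 29.7 ± 10.1 and 33.2 ± 37.5 CPM. Of the 13, Aldh1a2, a retinoic acid synthesising enzyme, was called higher at 2 d (9.35 ± 1.35 to 22.6 ± 3.67 CPM, log2 fold change 1.27 ± 0.24, adjusted p = 0.0148, edgeR) and lower between 7 d and 2 d (-1.13 ± 0.22, adjusted p = 0.0178, edgeR). Slc6a20a, a proline transporter, was called higher between 7 d and 2 d (0.82 ± 0.19, adjusted p = 0.0372, edgeR), at 20.1 ± 3.77 CPM in sham, 12.4 ± 3.24 at 2 d and 21.9 ± 5.24 at 7 d. The Aldh1a2 call at 2 d was lost without sham 3 (range 1.204 to 1.36), and that of Slc6a20a held only without CVST-2d 5, CVST-7d 2 or CVST-7d 5 among 10 such fits (range 0.66 to 0.97). At 2 d edgeR called 1 of the 13 higher and 0 lower, with 5 at an unadjusted p under 0.05 in either direction. DESeq2 called 2 higher and 1 lower, and limma voom 3 higher and 1 lower. The fitted change at 2 d was positive in 7 and negative in 6 of the 13, with a median log2 fold change of 0.13. Among the 8 members edgeR called 0 at 2 d, and the fitted change was negative in 5, with a median of -0.67. The part of fibroblast numbers in the members' values was not tested.

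Mural cell markers summed to 272 to 358 CPM in sham, 292 to 388 at 2 d and 286 to 439 at 7 d. Rgs5, a pericyte gene, was the most abundant of the 12. Against sham edgeR called 0 at either time (1 at each at an unadjusted p under 0.05), and DESeq2 and limma voom each called 1 higher at 2 d. Tagln, a smooth muscle actin-binding protein, was called lower between 7 d and 2 d (log2 fold change -1.46 ± 0.36, adjusted p = 0.0429, edgeR). Of 7 endothelial markers, of which Flt1 was the most abundant, Pecam1 (1.02 ± 0.20, adjusted p = 0.0179, edgeR) and Cdh5 (0.98 ± 0.23, adjusted p = 0.0338, edgeR) were called higher at 2 d. Between 7 d and 2 d Slco1a4 was called higher (0.63 ± 0.16, adjusted p = 0.0488, edgeR) and Pecam1 lower (-0.78 ± 0.19, adjusted p = 0.0429, edgeR). Leaving out 1 sample, the Pecam1 call at 2 d was lost without sham 2, 3 or 4 (range 0.78 to 1.11), and that of Cdh5 held without CVST-2d 4 or 5 alone (0.72 to 1.08). Between the times the Tagln call held without CVST-2d 5 or CVST-7d 5 alone (-1.76 to -1.22), that of Pecam1 without CVST-2d 2, 4 or 5 alone (-0.87 to -0.53) and that of Slco1a4 without CVST-2d 5 alone (0.51 to 0.71).

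Macrophage markers summed to 47.5 to 229 CPM at 2 d and 32.7 to 1995 CPM at 7 d, and 5 of 9 were called higher at 7 d against sham (Cd68, Lyz2, Mrc1, F13a1 and Ms4a7). The count was 3 of 9 without CVST-7d 4 or CVST-7d 5, and 2, 1, 0 and 0 without sham 1, 2, 3 and 4. At 2 d edgeR called 0 of 9 (7 at an unadjusted p under 0.05, 6 by DESeq2 and 3 by limma voom). Lyz2, the most abundant, stood at 6.79 ± 0.983 CPM in sham and 564 ± 704 CPM at 7 d. Their sum was highest in CVST-7d 5, the sample with the highest Lum, Bgn, Aspn, Fmod and Ogn. Within the 2 d group it was lowest in CVST-2d 5, the sample with the lowest Lum and Bgn. Choroid plexus markers, with Ttr the most abundant, summed to 12.0 to 880 CPM in sham, 7.03 to 507 at 2 d and 10.9 to 128 at 7 d, and 0 of 8 were called by edgeR, DESeq2 or limma voom (0 at 2 d and 2 at 7 d at an unadjusted p under 0.05). Of 6 astrocyte markers, 4 were called higher at each time: Gfap, Vim and Serpina3n at both, Aldh1l1 at 2 d and Aqp4 at 7 d. Gfap, the most abundant, stood at 157 ± 22.8 CPM in sham, 1324 ± 493 at 2 d and 1064 ± 669 at 7 d. The calls of Gfap, Vim and Serpina3n held in all 9 fits without 1 sample at each time, that of Aldh1l1 was lost without sham 3 and that of Aqp4 without any 1 sham sample or CVST-7d 4 (log2 fold changes of 0.72 to 0.91 and 0.74 to 1.04). The part of these cells in the members' values was not tested.

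Overlapping gene models touch some members. In GENCODE M21, Aspn, Omd and Ogn lie within Cenpp, which is on the opposite strand and shares 7 exon bases with Aspn and 0 with the others. Cenpp held 4 to 25 counts per sample. Prelp shares 350 exon bases with Gm15851 on the opposite strand, which held at most 1 count. Whether the counting used strand is not given in the sources used here, so reads in shared bases cannot be assigned to one gene or the other.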

How the data were processed

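The authors deposited raw read counts by gene, as whole numbers, and the authors' FPKM values, in which fragments are scaled to transcript length and library size. Per the submitters' processing notes, fastp, HISAT2 and DESeq2 1.16.1 were used with build mm39. For the counting tool and annotation: not given in the sources used here. Per the labels' protocols, RNA was extracted with Trizol and libraries were made with the NEBNext Ultra kit.

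Of 55894 entries, 535 without an Ensembl gene (0.203 to 0.278% of counts) were left out. Counts of all 14 samples (14.7 to 20.8 M per sample, M for mega) were fitted in edgeR 4.0.16 (R 4.3.3) with group means, TMM factors (0.962 to 1.04) and filterByExpr, which kept 16918 genes. Differences were tested by its quasi-likelihood test (2-sided), p-values were adjusted by Benjamini-Hochberg across the 16918 genes, and calls were made at an adjusted p under 0.05. Levels are CPM as mean and SD, and log2 CPM for correlations used a prior count of 2. FPKM served only to compare levels between genes. Replicates differed beyond counting noise (chi-square per degree of freedom 7.76 or more).

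The members and the gene lists (7 of pathways and families, 7 of cell markers) were chosen with earlier results of these data known. Named were all members, all measured family genes, the list genes with the largest called change each way at 7 d, else at 2 d, the most abundant and every called marker, and the 3 genes most correlated with each member. Other called list genes are named because they were called. The result of 1 pathway list is not reported here. Sample numbers did not pair the groups: 2 of 13 same-numbered pairs deviated together with an r over 0.1. Alternatives were DESeq2 1.42.0 with its size factors or its test, limma 3.58.1 (voom with sample weights), no filter, a replicate block, fits of the groups compared alone, and leaving out samples. Promoters were read from RefSeq for 6 of the 8 members.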

Additional observations from a re-analysis of the deposited data

Results flagged for a closer look

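In 3 of 24 groups of values tested (8 members in 3 groups), 1 sample lay farther from the others in CPM than Dixon's 95% limit allows. All 3 were sample CVST-7d 5: Lum at 52.07 CPM, Bgn at 213.1 CPM and Aspn at 13.06 CPM. Chance gives about 1 in 20 only for independent values with a normal spread. The values here were CPM without a log, and these genes vary together (r about the group means 0.94 for Lum with Bgn, 0.93 for Bgn with Aspn). The 3 of 24 therefore cannot be set against that rate. The highest other 7 d samples were at 10.1, 33.1 and 2.46 CPM. The same sample was not high for Prelp, at 16.3 CPM within a group of 14.3 to 24.6.

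The difference from sham was not the same at both times for 2 members. The direct comparison of 7 d with 2 d gave a log2 fold change of 1.96 for Fmod and 1.41 for Ogn, both called by edgeR's quasi-likelihood test over all genes. Both genes were picked with this contrast in view, so the calls are a description.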

How the results depend on the processing

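Over the 3 comparisons and all alternatives, 354 of the members' values kept their sign and their side of the threshold, 17 gained a call, 10 lost one and 5 changed sign. Members called lower at 2 d (0) numbered 3 with DESeq2's test, 2 with limma voom, 1 with the replicate block, 2 without CVST-2d 5 and CVST-7d 2 together, and 0 to 2 without 1 sample. Members called higher at 7 d (0) numbered 1 with DESeq2's test, 2 without CVST-2d 5 and CVST-7d 2 together, and 0 to 2 without 1 sample. Counts with DESeq2's test leave out Bgn and Aspn, for which it gave no adjusted p. Members called higher between 7 d and 2 d (2) numbered 1 with the replicate block, 0 with only these groups in the fit, and 0 to 2 without 1 sample. The cause was not tested. With the replicate block, all genes called higher fell from 505 to 186 at 2 d, from 611 to 55 at 7 d and from 261 to 57 between them. All genes called lower at 2 d went from 164 to 129 with it. The pairing is by number only. For fits that leave out samples or use only the groups compared, no share over all genes is given, so those counts only describe the members. Signs changed without 1 sample for Omd at 7 d (-0.0815 to 0.39), Aspn at 7 d (-0.0814 to 1.05), Lum between the times (-0.29 to 1.14), Ecm2 at 7 d (-0.15 to 0.0687), Nyx at 7 d (-0.33 to 0.0506), Optc between the times (-0.12 to 0.21) and Podn at 2 d (-0.00099 to 0.16). They changed also with limma voom for Lum between the times (-0.15) and Nyx at 7 d (0.0030), with the replicate block for Podn at 2 d (-0.0153) and Ecm2 at 7 d (0.0147), and without CVST-2d 5 and CVST-7d 2 for Ecm2 (0.0368). Omd was covered by 5 to 38 counts per sample, the fewest of the members. Scaling by DESeq2's size factors changed no count of members called.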
